A study of Culter alburnus with 6 samples.

Results

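The 100 loci described here are those whose read counts were highest relative to controls in all 3 libraries from cryopreserved topmouth culter (Culter alburnus, a carp relative from fresh waters of East Asia), out of 28228 loci in the count table. They were chosen by their measured values in these same libraries. Each library was divided by its median-of-ratios size factor, which puts the 6 libraries on a common scale, and the resulting values are called scaled counts. Loci were kept if the mean scaled count over the 3 cryopreserved libraries lay from 50 to 15000 and the highest of those 3 values was less than 4 times the lowest, which left 15582 eligible loci. These were ranked by a separation ratio, (lowest cryopreserved scaled count + 5) / (highest control scaled count + 5). A ratio above 1 was found for 265 eligible loci, or 1.70%, and the first 100 of them are the members. Because the rule uses the contrast between the groups, the difference of the members between the groups is a description and carries no test.

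The groups were 3 control libraries, labelled wt, and 3 libraries labelled as cryopreservation of embryos. Vitrification was done on embryos at the tail-bud stage, when the tail of the embryo starts to extend from the body. The labels give the material as embryos, the design text speaks of larvae, and the labels name no strain, no age and no warming method for any library. Separate spawnings or pools of animals are not stated for the replicates, so their spread may be technical. Vitrification uses cryoprotectants and fast cooling to turn water into a glass without ice crystals, and the way back is the harder step for large, yolk-rich fish embryos, since ice can form if warming is slow. Gold nanorods absorb laser light and turn it into heat within the sample, which is why they are used for warming. The labels do not state whether they were used for these libraries.

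The loci are identified by locus tags, which no source used here pairs with gene names, the annotation of assembly ASM4018292v1 included. All 28228 tags were found in that annotation, 0 of the 100 members have a name, and no member can be given a function. Lists of gene roles prepared from product names could therefore not be applied. No expected marker of the embryo could be checked either. In these bulk libraries, more cells of a type and more RNA per cell cannot be told apart.

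Control 3 and cryopreserved 1 stood apart from the other libraries. Their totals of 29951314 and 30795972 counts were the 2 largest, with the others between 26611022 and 29641070, while their size factors were the 2 smallest, 0.890 and 0.863, against 1.07 to 1.14 for the other 4. Over the eligible loci, the interquartile range of deviations from a locus's mean ran from -0.54 to 0.39 log2 units in control 3 and from -0.36 to 0.47 in cryopreserved 1, and in the other 4 libraries it stayed between -0.25 and 0.31. Values without these 2 libraries are given beside the results they touch.

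The groups were far more widely apart in 3 members than in the rest. Their ratios were 6.36, 5.17 and 4.05, the fourth was 1.99, and 89 of the 100 members were below 1.5, with a median of 1.20 and a lowest value of 1.11. The converse rule ranks loci by the lowest control over the highest cryopreserved library. It sets the limits on level and spread on the control libraries instead, so its eligible loci are a different set. The converse rule found 358 loci with a ratio above 1 among 15994 eligible, or 2.24%. Its first 100 had a median ratio of 1.35 and none at or above 4, with a highest value of 2.74. The members thus had the most extreme single loci and the smaller median ratio of both lists, a difference that was not tested.

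**Figure D1:**
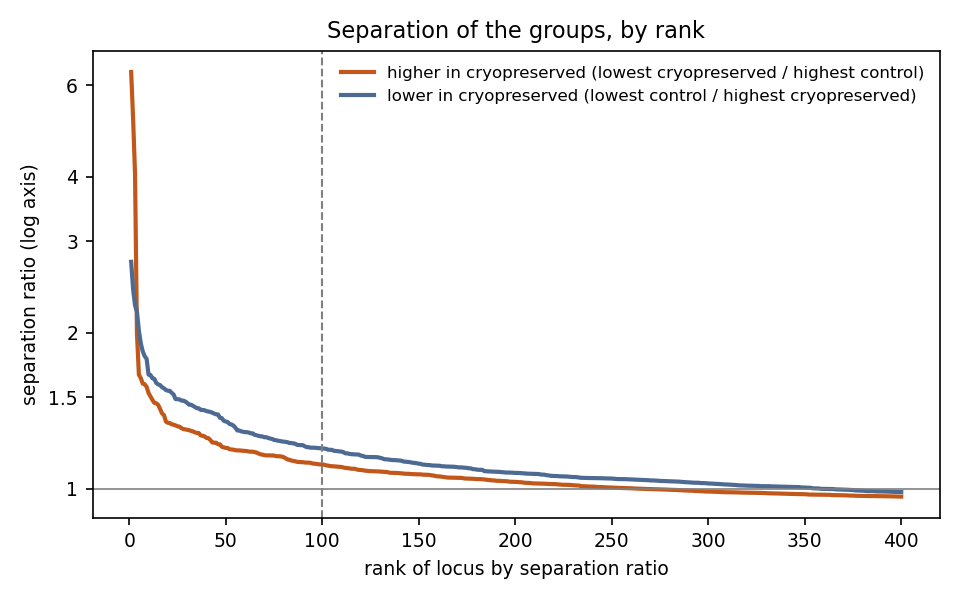
Separation ratio (log axis) of the first 400 eligible loci by rank, for loci higher (orange) and lower (blue) in cryopreserved libraries; the dashed line marks rank 100. The orange curve starts at 6.36, drops to 1.99 at the fourth locus and then runs below the blue one.

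ABG768_019127 had the highest ratio. Its scaled counts were 10.8, 0 and 0 in controls 1, 2 and 3 and 138, 302 and 95.9 in cryopreserved 1, 2 and 3. It was close to undetected in the controls, where the deposited counts were 12, 0 and 0. A count of 0 has a 1-sided upper 95% limit of about 3 counts, for counting error only. That is 2.79 and 3.37 scaled counts in controls 2 and 3. The group means were 3.62 ± 6.26 and 179 ± 109 (SD, n = 3 each), and the value in cryopreserved 2 was more than 2 times that in either other cryopreserved library. The ratio of means was 49.4, and 32.2 without cryopreserved 2, while without control 1 both remaining controls were at 0.

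ABG768_021918 stood at 10.8, 5.59 and 24.7 scaled counts in the controls and at 587, 291 and 149 in the cryopreserved libraries. Every cryopreserved value was far above the controls, and the highest was 3.95 times the lowest, just inside the spread limit of 4. The means were 13.7 ± 9.88 and 342 ± 223 (SD, n = 3 each), a ratio of 24.9. That ratio was 42.0 without control 3, 16.1 without cryopreserved 1 and 27.1 without both.

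ABG768_010759 was the most abundant of the 3, with 166, 229 and 144 scaled counts in the controls and 1812, 1095 and 944 in the cryopreserved libraries. The lowest cryopreserved value was 4.05 times the highest control after addition of 5 to both. The means were 180 ± 44.2 and 1284 ± 464 (SD, n = 3 each), a ratio of 7.14, and 5.20 without control 3 and cryopreserved 1. It is the only one of these 3 loci with at least 100 counts in each of the 6 libraries.

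ABG768_010760, the next locus after ABG768_010759 by annotated position, was also a member, at rank 51. Its scaled counts were 121, 121 and 281 in the controls and 501, 459 and 338 in the cryopreserved libraries. Here control 3 was 2.32 times the lower of the other controls and set the separation ratio of 1.20. Without control 3 and cryopreserved 1 the separation ratio was 2.74, and the ratio of means was 3.32 rather than 2.48. This was the only pair of members next to each other. ABG768_001585 and ABG768_001589, at ranks 5 and 7, lay with 3 loci between them.

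Ranks 4 to 12 had ratios from 1.99 to 1.48. ABG768_012567 had 7.23, 19.6 and 21.3 scaled counts in the controls and 55.6, 60.2 and 47.5 in the cryopreserved libraries. ABG768_001585 had 10.8, 46.6 and 40.4 against 148, 80.6 and 89.7, and ABG768_001589 had 36.2, 20.5 and 25.8 against 93.9, 119 and 60.7. In the first and second of these the low value of control 1 widened the control range, and in the last it was control 1 that was highest.

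ABG768_017615 showed 20.8, 25.1 and 23.6 scaled counts in the controls and 73.0, 44.3 and 101 in the cryopreserved libraries. ABG768_015295 showed 23.5, 33.5 and 30.3 against 64.9, 66.4 and 56.3. ABG768_009447 showed 71.4, 21.4 and 66.3 against 140, 145 and 115. Of these 3, ABG768_015295 had narrow groups on both sides, ABG768_017615 only among the controls and ABG768_009447 only among the cryopreserved libraries.

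ABG768_019603 had 17.2, 27.0 and 11.2 scaled counts in the controls and 170, 62.0 and 44.0 in the cryopreserved libraries. ABG768_025190 had 28.9, 54.9 and 46.1 against 153, 112 and 85.3. ABG768_020678 had 83.2, 66.1 and 84.3 against 158, 127 and 169. Cryopreserved 1 was 2.75 times the next library in ABG768_019603, whereas in ABG768_020678 it lay between the other 2 cryopreserved libraries.

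**Figure D2:**
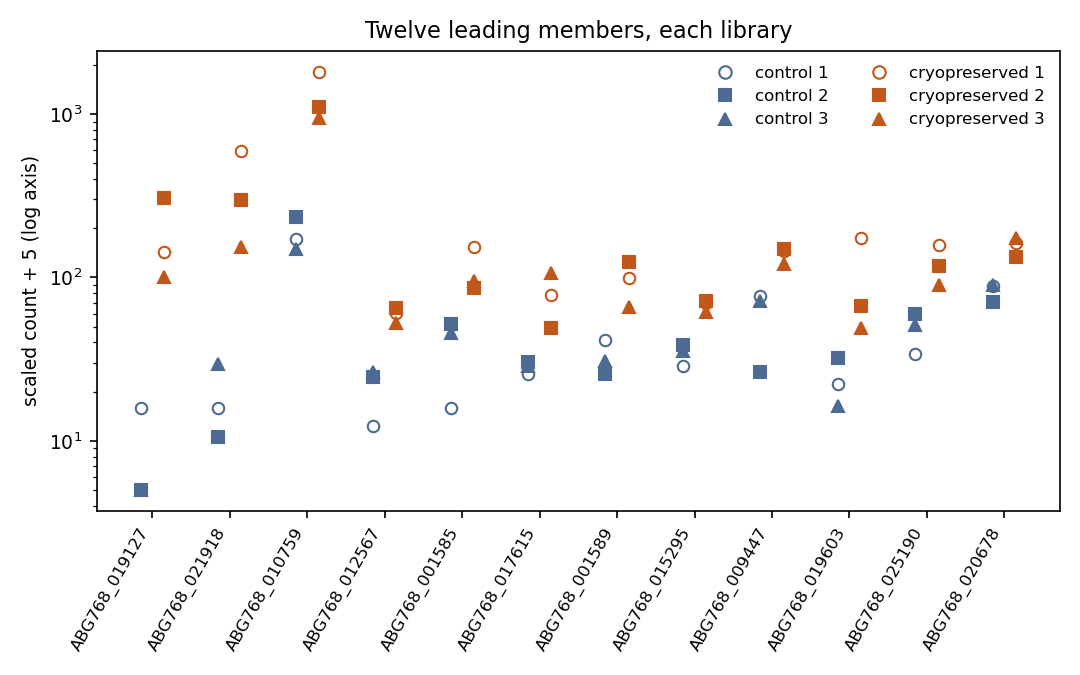
Scaled count + 5 (log axis) of the 12 members of highest rank in each library, controls in blue and cryopreserved libraries in orange, with a marker for each replicate. The first 3 loci have a wide gap between the colours, and from ABG768_012567 on the gap is narrower, with no ratio above 1.99.

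The last members and the first loci outside the list had nearly equal ratios. ABG768_022337, ABG768_018365 and ABG768_015428, at ranks 98 to 100, had 1.12, 1.11 and 1.11, and ABG768_019552, ABG768_005780 and ABG768_024220, at ranks 101 to 103, had 1.11, 1.11 and 1.11. ABG768_015428 had 362, 376 and 248 scaled counts in the controls and 566, 420 and 465 in the cryopreserved libraries. ABG768_019552 had 1.81, 16.8 and 38.2 against 45.2, 68.2 and 43.1. The length of the list is thus a convention of the rule, and no step in the values marks rank 100.

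The members were scarcer than the loci they were drawn from. Their mean scaled count in the controls had a median of 127 (lowest 3.62, highest 6700), against 535 over all eligible loci. In the cryopreserved libraries the medians were 255 and 547. A mean below 100 in the cryopreserved libraries was found for 22 members (22%) and for 8.25% of eligible loci, and a mean of at least 1000 for 11 members and 31.1% of eligible loci. The limits on the level apply to both sets, but the ratio is higher where the highest control is low, so the level is not independent of the choice.

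At the upper end, ABG768_019487 had 7110, 6252 and 6738 scaled counts in the controls and 17802, 9173 and 8428 in the cryopreserved libraries. ABG768_023008 had 2645, 2700 and 1930 against 3484, 3172 and 3263, and ABG768_010604 had 1731, 1658 and 1924 against 3369, 2581 and 2431. At the lower end, ABG768_024311 had 13.6, 14.0 and 19.1 against 91.6, 26.6 and 35.2, and ABG768_011869 had 37.1, 36.3 and 38.2 against 68.4, 46.0 and 44.0, with ABG768_012567, given above, as the third. Cryopreserved 1 was the highest library in each of the 5 loci other than ABG768_012567.

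**Figure D3:**
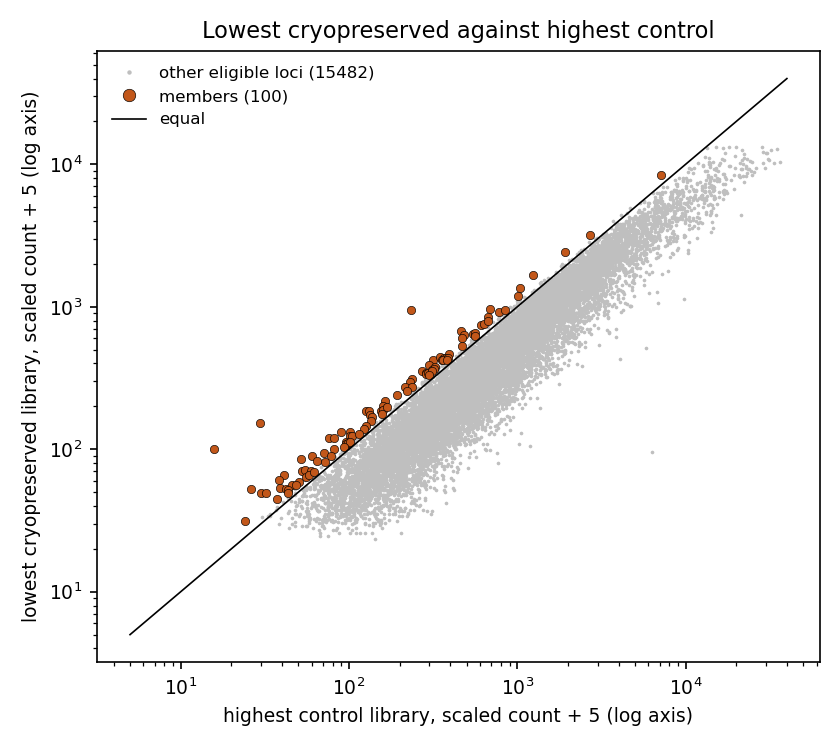
Lowest cryopreserved against highest control scaled count + 5 (both axes log) for the 100 members (orange) and the other 15482 eligible loci (grey); the line marks equal values. Most members lie just above the line, and ABG768_019127, ABG768_021918 and ABG768_010759 lie well away from it.

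The ratio of group means had a median of 1.94 over the members (interquartile range 1.57 to 2.48, lowest 1.23, highest 49.4) and of 1.01 over all eligible loci. It was at least 2 for 45 members and below 1.5 for 19. Without control 3 and cryopreserved 1 the median over the same members was 1.53, and 24 reached 2. All 100 kept every remaining cryopreserved value above every remaining control value, which the choice on all 6 libraries leads to.

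Cryopreserved 1 gave the highest value of its group in 64 of the 100 members, cryopreserved 2 in 21 and cryopreserved 3 in 15. Over all eligible loci these shares were 41.6%, 37.2% and 21.1%. The median deviation from a member's mean was 0.67 log2 units in cryopreserved 1, 0.27 in cryopreserved 2 and 0.26 in cryopreserved 3, and -0.30, -0.29 and -0.50 in controls 1, 2 and 3. With size factors the 2 libraries that stood apart were thus also the ones farthest from the middle, in opposite directions. With library totals, however, the members' median in cryopreserved 1 was the lowest of its group. The part of these libraries in the choice of members was not tested beyond the values without them.

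**Figure D4:**
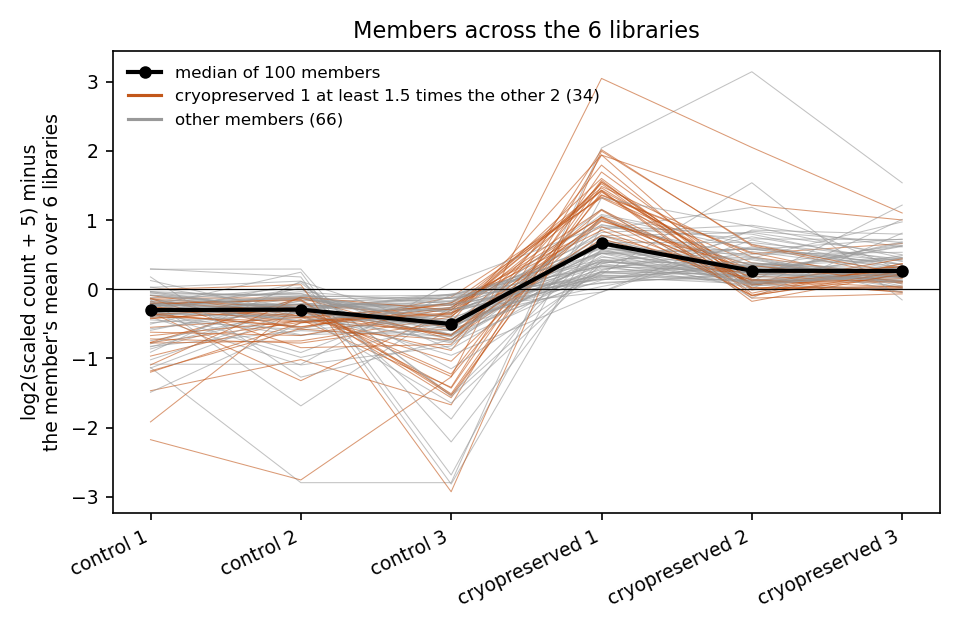
Deviation of each member from its own mean over the 6 libraries (log2 of scaled count + 5, vertical axis) by library, with the median over members in black and members with a high cryopreserved 1 in orange. The black line is lowest at control 3, at -0.50, and highest at cryopreserved 1, at 0.67.

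In 34 members cryopreserved 1 was at least 1.5 times both other cryopreserved libraries, against 14.3% of eligible loci, and in 17 it was at least 2 times both, against 4.40%. The 34 members had a median ratio of means of 2.46 with all 6 libraries and of 1.52 without control 3 and cryopreserved 1. Since a high cryopreserved 1 defined these members, a fall without it follows at least in part from the choice. The same holds for the loci named next. Over all 100 members the medians were 1.94 and 1.53, so without these libraries the 34 were close to the whole list. ABG768_002126, which was picked out after its values were seen, had 575, 551 and 682 scaled counts in the controls and 3661, 961 and 955 in the cryopreserved libraries. Its ratio of means was 3.08 with all libraries and 1.72 with the 4. ABG768_025881, picked in the same way, had 430, 475 and 340 against 2207, 634 and 653, and its ratio of means was 1.44 with the 4.

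In 12 members control 3 was at most 0.5 times both other controls, against 15.7% of eligible loci. In these the low control 3 raised the ratio of means, while controls 1 and 2 set the separation. ABG768_014044, picked out after its values were seen, had 47.9, 43.8 and 1.12 scaled counts in the controls and 75.3, 66.4 and 65.9 in the cryopreserved libraries. ABG768_013073, picked in the same way, had 84.1, 88.5 and 6.74 against 351, 135 and 99.4, so that control 3 was low and cryopreserved 1 high at once, as in 5 members in all. The ratio of means of ABG768_013073 was 3.26 with all libraries and 1.37 with the 4, a fall that leaving out these libraries leads to.

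In 12 members the gap between the lowest cryopreserved and the highest control library was wider than the range within either group. In 50 members it was wider than neither, in 27 wider than the control range alone and in 11 wider than the cryopreserved range alone. These counts cover the members alone, and since the rule used this contrast nothing is read from them. The 12 loci were singled out after their values were seen. Their ratios of means ran from 1.23 to 3.39, with a median of 1.45 with all 6 libraries and 1.44 without control 3 and cryopreserved 1. Since ranges narrower than the gap defined these loci, a small change of the median follows in part from the choice. The separation of 6 of them depended on the scaling: when counts were divided by library totals alone, cryopreserved 1 fell among the controls in ABG768_013435, ABG768_016440, ABG768_027564, ABG768_012267, ABG768_027241 and ABG768_004759.

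ABG768_013435 had 1236, 1222 and 1136 scaled counts in the controls and 1668, 1723 and 1731 in the cryopreserved libraries. The gap of 432 compared with ranges of 100 and 62.6 within the groups, and the means were 1198 ± 54.2 and 1707 ± 34.1 (SD, n = 3 each), a ratio of 1.43. In counts per library total (CPM), however, it had 49.5, 49.3 and 33.8 in the controls and 46.7, 67.3 and 66.4 in the cryopreserved libraries, so that the groups overlapped. ABG768_008257 had 449, 421 and 458 against 701, 692 and 667, with means of 443 ± 19.5 and 687 ± 17.5 (SD, n = 3 each), and its groups did not overlap by library totals. Both loci were about as far apart in the 4 libraries, with ratios of means of 1.42 and 1.58, which their narrow ranges lead to.

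ABG768_016440 had nearly equal controls, at 95.8, 95.0 and 96.6 scaled counts, and 127, 145 and 133 in the cryopreserved libraries. ABG768_027564 had 210, 224 and 172 against 290, 306 and 295. ABG768_004759 had 276, 308 and 272 against 349, 347 and 355. The remaining 7 of the 12 are ABG768_012567, ABG768_015295 and ABG768_020678, given above, whose ratios of means were 3.39, 2.15 and 1.94, with ABG768_000282, ABG768_000388, ABG768_012267 and ABG768_027241, whose ratios of means ran from 1.23 to 1.89.

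**Figure D5:**
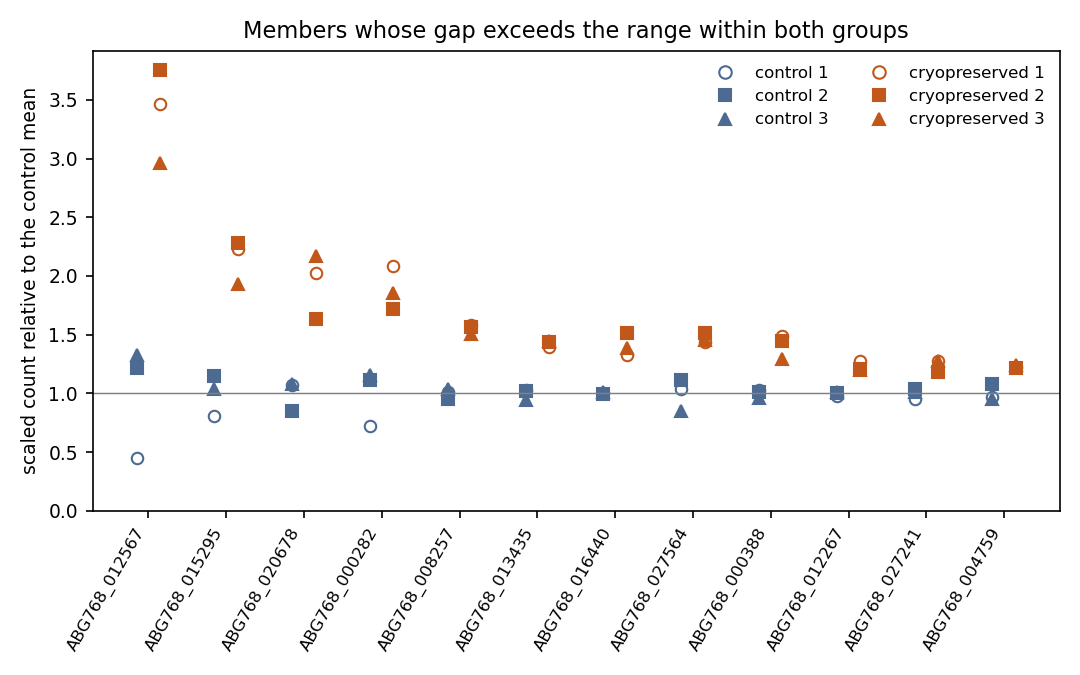
Scaled count (with size factors) of each library divided by the control mean (vertical axis, from 0) for the 12 members whose gap exceeds the range within both groups, controls in blue and cryopreserved libraries in orange. In ABG768_013435 and ABG768_008257 the 6 points form 2 narrow clusters, with cryopreserved values near 1.43 and 1.55 times the control mean.

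The depth of the libraries limits what the smaller separations show. Exact Poisson intervals at 95% of the lowest cryopreserved and the highest control count overlapped in 67 members and lay apart in 33, against 0.225% of eligible loci that lay apart in this direction, and since the rule used this contrast nothing is read from that. The median of the mean scaled count in the cryopreserved libraries was 191 for the former and 746 for the latter. These intervals cover counting error only, and they are too narrow where a deposited count is not 1 fragment. Among counts from 1 to 20, not limited to the members, between 59.9% and 68.5% were even, depending on the library. The members had 17 counts in that range, of which 8 were even.

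No member was called by edgeR or limma-voom across all loci, whereas DESeq2 called 3, given below. All 100 were among the 21846 loci tested with edgeR's quasi-likelihood test, and 0 passed an adjusted p of 0.05, as did 0% of all tested loci in the direction higher in cryopreserved libraries. The adjusted p was 0.999955 for each member. At an unadjusted p under 0.05 there were 29 members, against 0.385% of all tested loci that were higher at that level, and since the members were chosen on this contrast nothing is read from the difference. In either direction 127 of the 21846 loci were under 0.05 with edgeR, far fewer than that threshold would pass if no locus differed. The reason was not tested. With limma-voom 0 members passed the adjusted threshold and 24 had an unadjusted p under 0.05, against 0.256% of all tested loci that were higher at that level.

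DESeq2 called 3 members, ABG768_019127, ABG768_021918 and ABG768_010759, with adjusted p-values of 0.00536, 2.07e-06 and 2.07e-06, against 0.0196% of the 25538 loci it tested. Since the members were chosen on this contrast, nothing is read from that difference. The other DESeq2 calls, ABG768_014804 and ABG768_025692, named after they were seen, had an adjusted p of 0.0297 each. Both were kept out by the spread limit. Their scaled counts in cryopreserved 1, 2 and 3 were 46.4, 230 and 38.7, and 2.32, 206 and 11.4. The unadjusted p of DESeq2 was under 0.05 for 37 members, against 0.908% of all loci it tested that were higher at that level. With edgeR the members' median log2 fold change was 0.97 (lowest 0.31, highest 5.55), with a median standard error of 0.49, against a median change of 0.02 over all tested loci. Non-overlapping groups with higher cryopreserved values, which the rule demands of every member, were found for 1.57% of all tested loci, and the converse for 2.04%.

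Loci beside the members in the annotation did not share their separation as a rule. Of 198 neighbouring loci that are not members, 175 were tested, with a median log2 fold change of 0.05. Among them 5, or 2.86%, had every cryopreserved library above every control, against 1.57% of all tested loci. The converse was found for 0 of them, against 2.04% of all tested loci. The share of 1.57% includes the members, all of which have this separation by the rule, whereas the neighbours leave members out. That share is therefore too high as a background for the neighbours, and the difference was not tested. ABG768_016814, at rank 16, and its neighbour were picked out of these 5 after their values were seen. This member had 123, 59.6 and 126 scaled counts in the controls and 431, 182 and 196 in the cryopreserved libraries, and ABG768_016815, which follows it, had 25.3, 13.0 and 0 against 160, 65.5 and 32.5. Whether reads of one locus were counted for its neighbour was not tested.

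Which loci were among the first 100 changed with single libraries beyond the leading loci. When the rule was applied to 5 libraries, leaving out each in turn, the new list of 100 held 52, 25 and 25 of the members without control 1, 2 and 3, and 42, 24 and 32 without cryopreserved 1, 2 and 3. Of the members, 14 were in each of these 6 lists. These 14 were ranks 1 to 14, the members with the highest ratios. With fewer libraries in a group the ratio is easier to pass, so new loci can displace members that stay separated. All 100 members kept a ratio above 1 without control 3 and cryopreserved 1, which the choice on all 6 libraries leads to. Without control 3 and cryopreserved 1 together, an alternative chosen after seeing the data, 13.7% of 18280 eligible loci had a ratio above 1, and the first 100 of those held 6 members. ABG768_021918, ABG768_019127 and ABG768_010759 were then at ranks 2, 7 and 10, and ABG768_012567 at 61.

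All 100 members kept their groups apart with TMM factors, which lie close to the size factors that chose them. With library totals alone, which set cryopreserved 1 lower and control 3 lower than size factors do, 74 members did, and in each of the other 26 cryopreserved 1 was the lowest library of its group, as it already was with size factors in 15 of these. With that scaling the median deviation of eligible loci was -0.27 log2 units in cryopreserved 1 and -0.24 in control 3, and the members' own medians were 0.33 and -0.75. The members' medians in cryopreserved 2 and 3 were then 0.40 and 0.37, above that of cryopreserved 1. The counts of 100 and 74 cover the members alone, and nothing is read from them.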

How the data were processed

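Per the labels' protocols, 6 libraries of poly-A RNA were read by Illumina sequencing. The deposited table holds the authors' raw read counts per locus, with a column for each library per the file header. No aligner, counting program, build or strand setting is given in the sources used here, so coordinates are not printed and the annotation was used only for neighbours. Columns were matched to samples by title.

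Size factors were median-of-ratios. The members, lists and tests were chosen with earlier results of these data known. The fit across all loci was edgeR 4.0.16 (R 4.3.3), quasi-likelihood, with TMM factors, the default filter by group and Benjamini-Hochberg adjustment at 0.05. The standard error is the log2 fold change divided by the square root of F. DESeq2 1.42.0 and limma-voom 3.58.1 were alternatives. The edgeR fit and the rule were run on simulated counts with planted differences. Such counts do not show how well the fit suits these libraries. Named loci are the 12 leading members, 3 on each side of rank 100, adjacent members and the 3 highest and lowest by level. Others are stated as picked after their values were seen. The comparison of the rule with other ways of dividing the libraries is not reported here.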

Additional observations from a re-analysis of the deposited data

How the results depend on the processing

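The number of loci called, 0 of 21846, and of members called, 0, were the same under every edgeR and limma-voom alternative run. With DESeq2 and its own filtering the numbers were 5 loci and 3 members, and with DESeq2 after edgeR's filter, added after seeing the data, 3 and 3. With the replicate block, calls were 0 and members at an unadjusted p under 0.05 numbered 11 rather than 29. Of the 21846 loci tested, 39 were higher at that level with the block and 84 without it. Same-numbered libraries had correlations of deviations of -0.14, -0.38 and -0.05, and the labels state no pairing. Leaving out each library gave 0 calls. Members at an unadjusted p under 0.05 then numbered 8 without control 1 and 14 without control 2. For the other libraries left out these counts are not reported here. Of all tested loci, 77 of 22347 were higher at that level without control 1 and 212 of 22314 without control 2. Since the members were chosen on this contrast, nothing is read from these numbers. The members' median log2 fold change was 0.97. It ran from 0.74 to 1.01 with each library left out. It was 0.62 without control 3 and cryopreserved 1 together and 0.84 with library size only. Of the 100 members, the rule took 57 with library totals, 40 with no limits on the mean, 24 to 52 with each library left out, and 6 without control 3 and cryopreserved 1 together. It took 70 with a spread limit of 2 and 97 or 98 with TMM factors, a limit of 8 or an added constant of 1 or 20. For these differences the cause was not tested. No log2 fold change of the 12 leading members changed sign, but the rule fixes their sign. For ABG768_019127 the log2 fold change ranged from 4.94 to 10.52. The value of 10.52 came from the run without control 1, where both remaining controls were at 0. The ratio of means has no finite value there, so 10.52 is no measure of the size of the change.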

Other observations

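Loci outside the list also had every cryopreserved library above every control. Over all levels there were 438 such loci, of which 160 had a mean below the level range, 0 a mean above it and 13 were kept out by the spread limit. Of these 13, the ratio of 7 was above that of the last member, and cryopreserved 1 was the highest library in 8 and the lowest in 3. ABG768_014804 had 0, 5.59 and 0 scaled counts in the controls and 46.4, 230 and 38.7 in the cryopreserved libraries, a ratio of 4.13, above that of ABG768_010759. ABG768_016726 was at 0 in all 3 controls and at 371, 14.2 and 10.5 in the cryopreserved libraries. ABG768_021795 was at 0 in all 3 controls and at 2.32, 990 and 5.28, so that nearly all of its counts lay in cryopreserved 2. These loci were picked after their values were seen.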
